A study of Mus musculus with 6 samples.

Results

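Iron and heme handling genes were followed in whole epididymal white adipose tissue of mice whose fat cells lack CNOT3. The 10 listed genes were Tfrc, Trf, Fth1, Ftl1, Slc40a1, Slc11a1, Slc11a2, Hmox1, Cp and Cd163l1, and the members were the 23 probe sets, of 45037 on the array, that the platform annotation assigned to 1 of these symbols alone. Trf and Ftl1 had no such probe set, because the annotation gave each of theirs to several genes, so 8 of the 10 genes have values. One group was CNOT3KO, 3 mice in which Cre recombinase under the adiponectin promoter, active in adipocytes, deleted the gene for CNOT3, a subunit of the CCR4-NOT complex that shortens mRNA poly(A) tails. The other was WT, 3 mice labelled wild type, and whether these carried floxed alleles or Cre is not given in the sources used here. All mice were on the C57BL/6 strain and 8 weeks old, and each gave 1 Affymetrix array, hybridised from 500 ng of total RNA.

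Cells take up iron when transferrin, encoded by Trf, binds the transferrin receptor, encoded by Tfrc, and the divalent metal transporter encoded by Slc11a2 moves the iron out of the endosome. Ferritin, built from the heavy chain of Fth1 and the light chain of Ftl1, stores it, and ferroportin, encoded by Slc40a1, is the exporter that works beside ferroxidases such as ceruloplasmin, encoded by Cp. Macrophages recover iron from engulfed red cells: heme oxygenase 1, encoded by Hmox1, opens the heme ring, and Slc11a1 encodes a metal transporter of the phagosome. When iron is low, iron regulatory proteins bind hairpins in several of these mRNAs, which protects the Tfrc mRNA and holds back translation of the ferritin mRNAs.

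The stretches upstream of 2 members whose signal passed the test in opposite directions are shown because they differ in the short motifs they hold. RefSeq (build GRCm38.p6) gave windows for 6 of the 10 genes, 9 windows in all, and Trf, Slc40a1, Slc11a2 and Hmox1 were not among them. Each window printed is the 250 bases before an annotated start, 5′ to 3′ on the gene's strand, which is the plus strand for both. The Slc11a1 window lies at chr1:74374953-74375202 and the second of the Tfrc windows, which belong to annotated starts 226 bases apart, at chr16:32608872-32609121. Capitals mark matches on either strand to 3 motifs that do not overlap here: GAGGAA (the PU box), ACGTG (the core of hypoxia-inducible factor sites) and TGACNNNGC (the core of antioxidant response elements).
Slc11a1: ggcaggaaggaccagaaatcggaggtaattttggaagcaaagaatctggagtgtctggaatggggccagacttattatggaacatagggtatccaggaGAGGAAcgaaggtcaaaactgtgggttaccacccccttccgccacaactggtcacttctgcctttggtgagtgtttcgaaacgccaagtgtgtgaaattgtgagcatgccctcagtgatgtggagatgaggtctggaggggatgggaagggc
Tfrc: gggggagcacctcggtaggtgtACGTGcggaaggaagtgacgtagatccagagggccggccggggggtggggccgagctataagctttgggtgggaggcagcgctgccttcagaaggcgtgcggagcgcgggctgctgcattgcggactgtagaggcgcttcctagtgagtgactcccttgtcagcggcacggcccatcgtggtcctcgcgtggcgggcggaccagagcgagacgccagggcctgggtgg

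The PU box, a motif of the macrophage factor PU.1, was found in 1 of the 9 windows, that of Slc11a1, where it lay 152 to 147 bases before the start. Of all 32851 windows of this length 23.3% held it. The hypoxia core was found in 1 window, the Tfrc one printed, at 228 to 224 bases before the start, against 16.6% of all windows. The antioxidant core was in 0 of the 9 and in 10.2% of all. These matches describe letters and not bound sites.

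Arrays correlated at 0.977 to 0.987 within a group and at 0.933 to 0.944 between groups (Pearson's r across probe sets, on the log2 scale used below). Their median signals were 85.8, 88.0 and 82.1 in the CNOT3KO mice and 92.1, 92.9 and 91.9 in the WT mice. Every CNOT3KO array thus had a lower median than every WT array. The adipocyte markers Adipoq and Fabp4 averaged 26934 ± 4407 and 34375 ± 2718 in CNOT3KO and 28794 ± 6538 and 37672 ± 3195 in WT (SD, n = 3 each). Cnot3 averaged 201 ± 25.6 in CNOT3KO and 301 ± 7.02 in WT by its brighter probe set (log2 difference -0.54, adjusted p = 0.0151 by limma) and 227 ± 24.1 and 264 ± 47.7 by the other, which did not pass. By design the deletion is in adipocytes, and the part of other cells in the remaining Cnot3 signal was not tested.

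Of the 23 member probe sets 19 had a mean signal over the 6 arrays above 51.6, the 40th percentile, and were tested, each of them with both group means above that level. The test was limma across 27022 probe sets on log2(signal + 22.5), and a probe set was called at a Benjamini-Hochberg adjusted p under 0.05. Of the 19, 3 were called higher in CNOT3KO (15.8%, against 16.8% of all tested probe sets), 1 was called lower (5.26%, against 19.1%) and 15 did not pass. In 7 of the 19 the mice of the groups did not overlap (36.8%), against 49.4% of all tested probe sets. The tested member probe sets thus held calls at about or below the share of the whole array. Their median log2 difference was 0.16 beside -0.06 for all tested probe sets. Cp alone gave 7 of the 19, none of them called, and the median was the value of a Cp probe set, so these shares weigh that gene most. With 1 probe set per gene, 3 of the 8 member genes were called in either direction, beside 5115 of all 12769 tested genes. The 3 higher probe sets belonged to the exporter Slc40a1 and to the phagosomal transporter Slc11a1, and the lower one to the receptor Tfrc. With 1 array left out at a time, the count of higher members ran from 3 to 5, at 5 without CNOT3KO mouse 3, and the lower call was lost in 5 of the 6 cases.

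**Figure D1:**
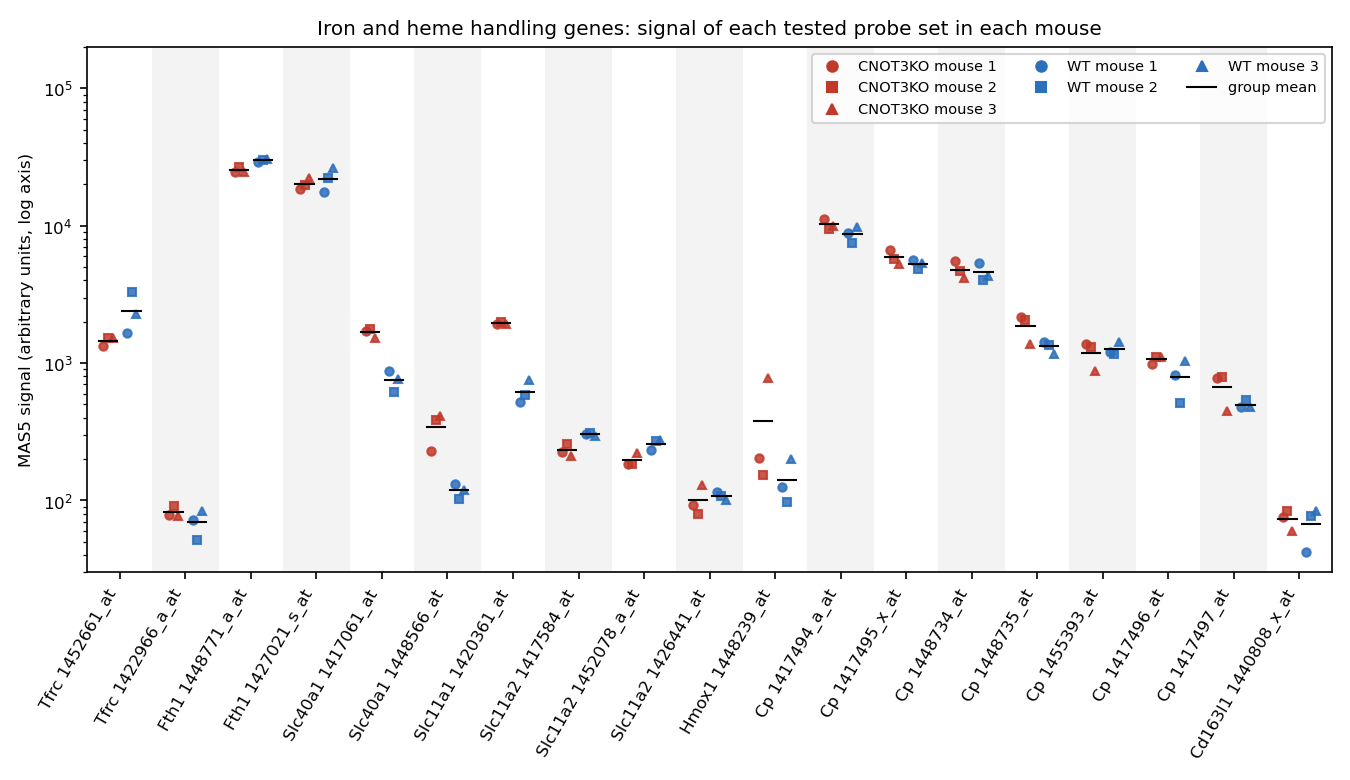
MAS5 signal (arbitrary units, log axis) of each of the 19 tested probe sets in each mouse, CNOT3KO in red left of WT in blue, with a bar at the group mean. For Slc11a1 and both probe sets of Slc40a1 every CNOT3KO mouse lies above every WT mouse, and for Hmox1 CNOT3KO mouse 3 stands at 781, above the other 5 mice.

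Of the uptake genes Tfrc was called lower by 1 probe set, and Slc11a2 was not called. Probe set 1452661_at of Tfrc, the receptor that brings transferrin iron into cells, read 1323, 1514 and 1535 in the CNOT3KO mice and 1644, 3269.5 and 2267 in the WT mice. The CNOT3KO mice were close together and all below the WT mice, which were spread over a wide range with mouse 2 the highest. The group means were 1457 ± 116 and 2393 ± 820.2 (SD, n = 3 each), 0.635-fold of WT on the log2(signal + 22.5) scale that all folds here use (log2 -0.65, SE 0.21, adjusted p = 0.0345). For Tfrc 1452661_at the call was lost without WT mouse 2 (log2 -0.40) or 3 (-0.67), without CNOT3KO mouse 1 (-0.59), 2 (-0.68) or 3 (-0.69), with no filter on dim probe sets (adjusted p = 0.0745) and without the trend in limma's variance prior (adjusted p = 0.0618). The other Tfrc probe sets did not show a fall. Probe set 1422966_a_at read 78.0, 91.1 and 76.5 in CNOT3KO and 72.3, 51.9 and 84.5 in WT (log2 0.19, adjusted p = 0.496), with overlapping groups. Probe set 1422967_a_at read 13.2, 14.3 and 22.1 in CNOT3KO and 4.0, 6.2 and 2.6 in WT and was too dim to be tested. With the log2 values of all Tfrc probe sets averaged, the gene's difference was 0.03 (adjusted p = 0.894), so the direction for Tfrc rests on 1 of its 3 probe sets.

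Slc11a2, the divalent metal transporter of endosomes, had 4 probe sets, of which 3 were tested and 0 called. Probe set 1417584_at read 226, 258 and 210.2 in CNOT3KO and 304, 309.8 and 293.5 in WT, without overlap (log2 -0.36, SE 0.14, adjusted p = 0.0658). Probe set 1452078_a_at read 184, 184 and 222 in CNOT3KO and 232.5, 269.5 and 277 in WT, again without overlap (log2 -0.37, SE 0.15, adjusted p = 0.0809). Both lay below WT by a similar amount and just missed the threshold, and both passed it with arrays weighted by quality (adjusted p = 0.0180 and 0.0134). Such weights raised the number of calls across the whole array as well. The third tested one, 1426441_at, overlapped (log2 -0.10, 95% interval -0.53 to 0.34), and 1441709_at, averaging 13.0 ± 9.88 in CNOT3KO and 43.3 ± 20.7 in WT (SD, n = 3 each), was too dim to be tested.

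Storage was represented by Fth1, the ferritin heavy chain that oxidises and holds iron. Its probe set 1448771_a_at read 24667, 26671 and 24761 in CNOT3KO and 29062, 30254 and 30650.4 in WT. Every CNOT3KO mouse lay below every WT mouse, by a small margin: the means were 25366 ± 1131 and 29989 ± 827 (SD, n = 3 each; log2 -0.24, 95% interval -0.45 to -0.03 before adjustment, adjusted p = 0.0694), and the difference did not pass. Probe set 1427021_s_at read 18576, 19664 and 22218 in CNOT3KO and 17573, 22245 and 26294 in WT, with overlap (log2 -0.11, adjusted p = 0.583). Its suffix marks probes shared between related transcripts, and ferritin genes have near-identical processed copies, so its signal may not come from Fth1 alone. These signals are high on a scale whose largest value was 44207, and whether they were compressed by saturation was not tested.

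Both probe sets of Slc40a1, which encodes ferroportin, the exporter of iron from vertebrate cells, were higher in CNOT3KO. Probe set 1417061_at read 1726, 1771 and 1530.5 in the CNOT3KO mice and 874, 619 and 764 in the WT mice. The lowest CNOT3KO mouse was well above the highest WT mouse, and the means of 1676 ± 128 and 753 ± 128 (SD, n = 3 each) differed 2.21-fold (log2 1.14, SE 0.14, adjusted p = 0.000327). Probe set 1448566_at read 231, 388 and 409 in CNOT3KO and 132.5, 103 and 119 in WT, a 2.53-fold difference (log2 1.34, SE 0.21, adjusted p = 0.00124), with CNOT3KO mouse 1 the lowest of its group. Both stayed called under all 16 alternatives, at log2 1.01 to 1.26 for the first and 1.03 to 1.58 for the second. In a whole tissue such a difference cannot tell more RNA per cell from more cells of a type that carries it.

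Cp, the ferroxidase that loads exported iron onto transferrin, had 8 probe sets, of which 7 were tested and 0 called. The brightest, 1417494_a_at, read 11208, 9501 and 10019 in CNOT3KO and 8827, 7466 and 9781 in WT, with overlap (log2 0.24, SE 0.12, adjusted p = 0.157). The log2 differences of the 7 ran from -0.10 to 0.48, with 6 above 0. With array weights 5 of the 7 passed, all higher (log2 0.32 to 0.62), which are all the member calls that this alternative adds on the higher side. Array weights also raised the number of calls among all tested probe sets. Leaving out 1 mouse also changed the call in 3 of the 7. Cp 1448735_at read 2168, 2065 and 1366 in CNOT3KO and 1433, 1359.5 and 1174 in WT (log2 0.47, adjusted p = 0.0607), and passed without CNOT3KO mouse 3 (0.67) or with centred arrays (adjusted p = 0.0474). Likewise 1417497_at (log2 0.37, adjusted p = 0.177) passed without CNOT3KO mouse 3 (0.63), and 1417496_at (log2 0.48, adjusted p = 0.108) passed without WT mouse 3 (0.69). CNOT3KO mouse 3 was the lowest of its group in 5 of the 7, and the probe sets share that RNA, so they are not separate evidence. The 8th probe set, 1441326_at, averaged 32.7 ± 2.64 in CNOT3KO and 30.6 ± 16.0 in WT (SD, n = 3 each) and was not tested.

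**Figure D2:**
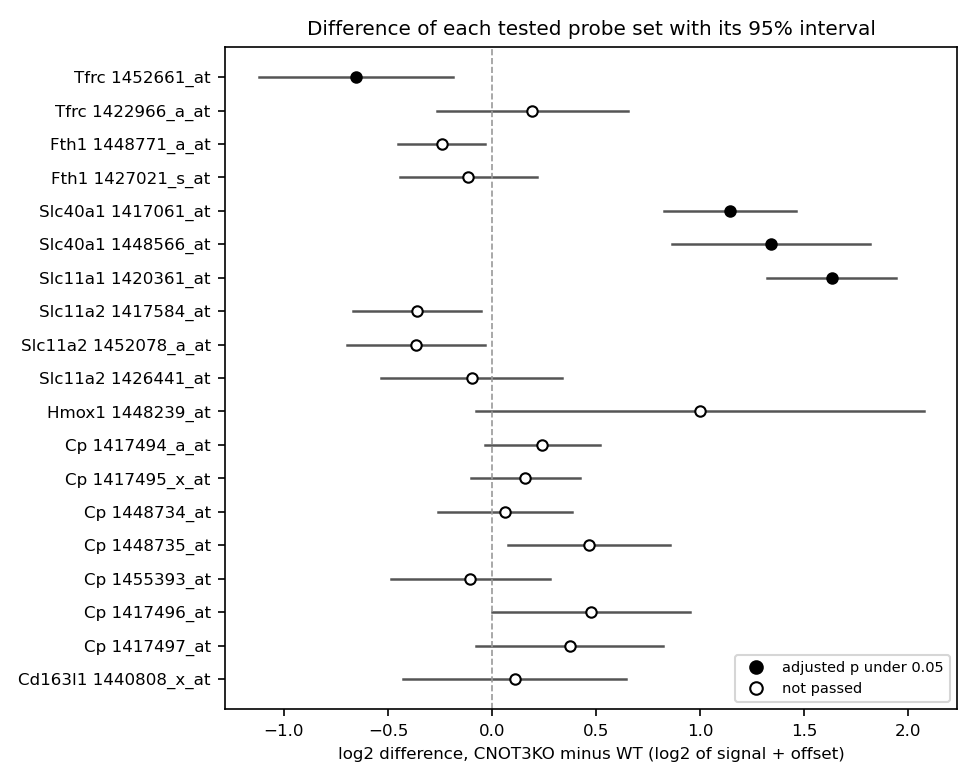
Log2 difference, CNOT3KO minus WT, of the 19 tested probe sets (points) with 95% intervals from limma before adjustment for multiple tests (lines), filled where the adjusted p was under 0.05. Slc11a1 and both Slc40a1 probe sets lie between 1.14 and 1.63, Tfrc 1452661_at lies at -0.65, and the Hmox1 interval is the widest, from -0.08 to 2.07.

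The phagosomal transporter Slc11a1 had the largest difference of the tested members. Its 1 probe set, 1420361_at, read 1935, 1979 and 1932 in the CNOT3KO mice and 522, 589 and 749 in the WT mice. The CNOT3KO mice were nearly equal and each stood far above the WT mice, and the means of 1949 ± 26.4 and 620.2 ± 117 (SD, n = 3 each) differed 3.10-fold (log2 1.63, SE 0.14, adjusted p = 4.8e-05). The call held under all 16 alternatives, at log2 1.52 to 1.77. Slc11a1 is known from macrophages, and macrophage markers moved in the same arrays: of 14 with both group means above the filter, 9 rose, 1 (Mertk) fell and 4 did not pass, with a median log2 difference of 0.87. The other one, Marco, averaged 99.7 ± 9.43 in CNOT3KO and 12.5 ± 7.32 in WT (SD, n = 3 each) and passed the filter only through CNOT3KO, so its call is not counted. Among all tested genes 23.2% were called higher and 16.9% lower. Cd68, a lysosomal glycoprotein of macrophages, rose 7.61-fold, Vsig4, a complement receptor, 4.29-fold, and Fcgr1, an immunoglobulin receptor, by 2.20 on the log2 scale (1.44 with its probe sets averaged). The signals of the 15 markers summed to 39729 to 56811 in CNOT3KO and 24614 to 29832 in WT, and the dimmest value among them was 4.07, for Marco in WT mouse 1. CNOT3KO mouse 3 had the lowest sum of its group, and the brightest markers weigh most in such a sum. Slc11a1 signal in that mouse was 1932, beside 1935 and 1979 in the other CNOT3KO mice. The part of macrophage content in the rises of Slc11a1 and Slc40a1 was not tested.

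Hmox1 signal was uneven between the CNOT3KO mice. Hmox1, whose product turns heme into biliverdin, carbon monoxide and free iron, read 204, 152 and 781 in CNOT3KO and 125, 98.1 and 202 in WT by its 1 probe set, 1448239_at. CNOT3KO mouse 3 stood far above the other 5 mice, and CNOT3KO mouse 2 lay inside the WT range. The means of 379 ± 349 and 142 ± 53.8 (SD, n = 3 each) gave a log2 difference of 0.998 (SE 0.48, adjusted p = 0.134) that did not pass. For Hmox1 1448239_at without CNOT3KO mouse 3 the difference was 0.33 (adjusted p = 0.391) and without CNOT3KO mouse 2 it was 1.43 and passed (adjusted p = 0.0439), so its size rests on single mice.

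Cd163l1, a relative of the hemoglobin-haptoglobin receptor Cd163 with scavenger receptor domains, was dim. Probe set 1440808_x_at read 75.9, 83.2 and 59.6 in CNOT3KO and 42.5, 76.5 and 83.5 in WT (log2 0.11, 95% interval -0.43 to 0.64, adjusted p = 0.755), with overlapping groups. Probe set 1455527_at read 42.7, 15.5 and 23.2 in CNOT3KO and 5.2, 59.8 and 5.7 in WT and was not tested.

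A wider set of 74 iron and heme genes outside the members was examined with 1 probe set per gene, the brightest. Of these, 70 had a probe set of their own and 65 were tested. In CNOT3KO 14 rose (21.5%, against 23.2% of 12769 tested genes), 17 fell (26.2%, against 16.9%) and 34 did not pass, with a median log2 difference of -0.09 beside 0.02 for all genes. These shares depend on scaling. With arrays centred on the median, 11 of the 65 rose and 23 fell, while 2318 of all genes were called higher and 2800 lower, in place of 2959 and 2156. The count of falls was 11 without CNOT3KO mouse 1 and 10 without WT mouse 2.

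Of 12 tested genes of heme handling 3 rose, 3 fell and 6 did not pass. Blvra and Blvrb, the biliverdin reductases that make bilirubin, were 2.11-fold and 2.13-fold of WT. Blvrb read 5685.5, 5547 and 5829 in the CNOT3KO mice and 2631, 2479 and 2859 in the WT mice (log2 1.09, SE 0.10, adjusted p = 4.8e-05), with a wide gap between the groups. Hmox2, the constitutive heme oxygenase, rose 1.59-fold (log2 0.67), to 3400 ± 19.8 in CNOT3KO against 2132 ± 49.5 in WT (SD, n = 3 each; adjusted p = 0.000425). Its inducible relative Hmox1 did not pass, with a larger difference but a wide interval (log2 0.998, 95% interval -0.08 to 2.07). The 3 falls were in Slc48a1, a heme transporter of the lysosome, at 0.631-fold, Pgrmc1, a heme-binding membrane protein, at 0.766-fold, and Abcg2, a transporter that can carry porphyrins, at 0.711-fold with overlapping groups. Pgrmc1 lost its call without CNOT3KO mouse 2 (log2 -0.33) or WT mouse 2 (-0.34). Abcg2 lost its call without CNOT3KO mouse 1 (-0.39) or 3 (-0.39) or any 1 of the WT mice (-0.57 to -0.42), and under 4 other choices. The 1 probe set of Abcg2 was not called in the test across probe sets. Cd163, also 1 of the 15 macrophage markers, read 1909, 1637 and 767 in CNOT3KO and 2255, 2307 and 2067.5 in WT. Every CNOT3KO mouse lay below every WT mouse, but the difference did not pass (log2 -0.71, adjusted p = 0.0657). Cd163 passed without CNOT3KO mouse 1 (-0.96) or with centred arrays (-0.81). Its difference was -0.32 without CNOT3KO mouse 3 and -0.36 with array weights, and did not pass in either. Its size thus rests in part on CNOT3KO mouse 3. Hp, the hemoglobin-binding haptoglobin, averaged 19356 ± 2391 in CNOT3KO and 17506 ± 5024 in WT (SD, n = 3 each) and did not pass, and Hpx, hemopexin, was too dim to be tested.

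Of 13 tested genes of export and regulation 3 rose, 5 fell and 5 did not pass. Fbxl5, an iron-sensing ubiquitin ligase subunit that marks the iron regulatory protein IRP2 for degradation, rose: it read 6545, 5479.9 and 5547 in CNOT3KO and 2920.2, 2814 and 2257 in WT (2.20-fold, log2 1.13, SE 0.13, adjusted p = 0.000154). The mRNAs of the iron regulatory proteins themselves, Aco1 and Ireb2, were 0.799-fold and 0.849-fold of WT and did not pass (adjusted p = 0.0653 and 0.0997). Aco1 passed without WT mouse 3 (log2 -0.45), with centred arrays (-0.42), with array weights (-0.34) and with cross-hybridising probe sets avoided (-0.46), and Ireb2 with centred arrays (-0.33) and with array weights (-0.24). Heph, the membrane ferroxidase that works beside ferroportin, fell to 1941 ± 289 in CNOT3KO against 4436 ± 300 in WT (SD, n = 3 each; log2 -1.19, SE 0.13, adjusted p = 0.000121), without overlap. Its paralog Hephl1 read 583, 573.5 and 1279 in CNOT3KO and 297, 54.6 and 50.5 in WT (log2 2.68, SE 0.52, adjusted p = 0.00324), with CNOT3KO mouse 3 and WT mouse 1 far above the rest of their groups.

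Bmp6, the growth factor that induces hepcidin in liver, fell by 0.999 on the log2 scale, Neo1, neogenin, which binds hemojuvelin, fell to 0.635-fold (3 of its 5 probe sets were called lower, and the log2 difference of -0.66 became -1.03 with cross-hybridising probe sets avoided), and Hfe, a regulator of hepcidin, fell to 0.761-fold. Hjv, hemojuvelin, rose 2.07-fold at signals of 108 to 155 in CNOT3KO against 28.0 to 84.0 in WT, and lost its call without CNOT3KO mouse 2 (log2 0.97). Hamp, hepcidin, averaged 51.3 ± 11.5 in CNOT3KO and 34.02 ± 15.9 in WT (SD, n = 3 each) and was too dim to be tested. Nfe2l2, which encodes the NRF2 activator of ferritin and Hmox1 genes, fell to 0.752-fold (adjusted p = 0.0172), a call lost without CNOT3KO mouse 1 (log2 -0.41), WT mouse 2 (-0.40) or WT mouse 3 (-0.37) or with all probe sets averaged (-0.33). Bach1, the heme-sensing repressor of those genes, read -0.11 on the log2 scale (95% interval -0.55 to 0.32) and did not pass.

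**Figure D3:**
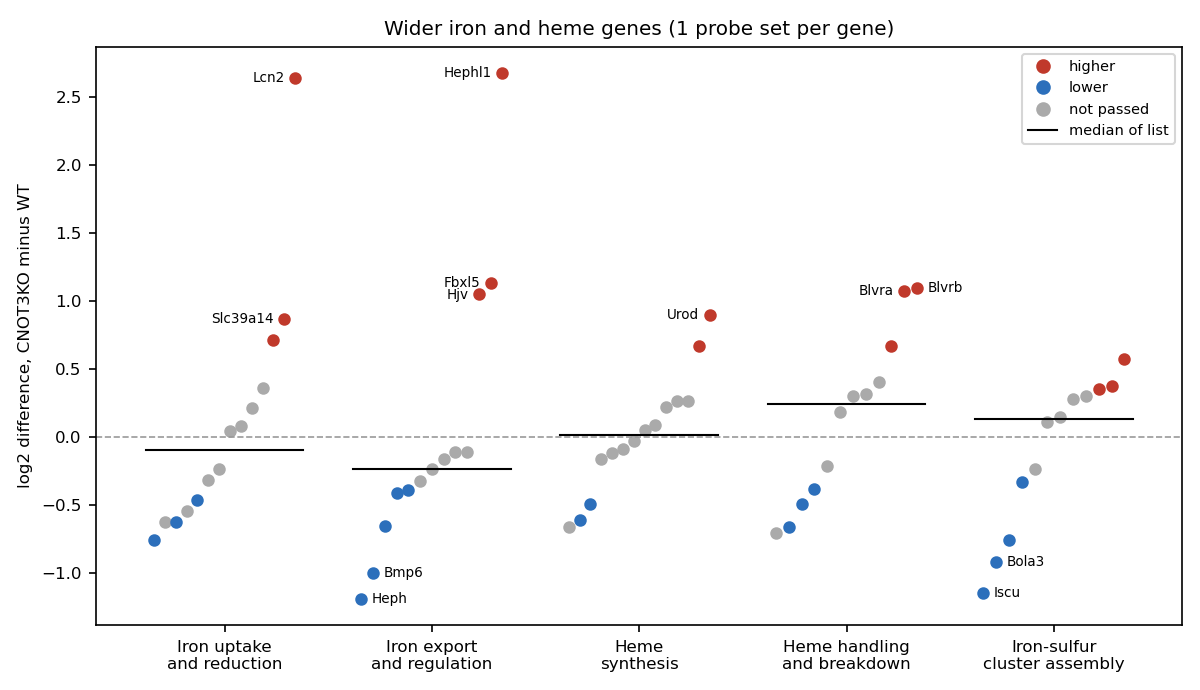
Log2 difference, CNOT3KO minus WT, of the 65 tested genes of the wider set by sub-list, each point 1 gene, red where called higher, blue where called lower and grey where not passed, with a line at the sub-list median. Lcn2 and Hephl1 lie above 2.5, Blvra, Blvrb and Fbxl5 lie near 1.1, and Heph and Iscu lie below -1.1.

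Of 14 other tested genes of uptake and reduction 3 rose, 3 fell and 8 did not pass. These counts take the brightest probe set of each gene. Steap2 did not pass by that one (log2 -0.62, adjusted p = 0.0688 by limma), but 3 of its 4 tested probe sets were called lower in the test across probe sets. Lcn2, lipocalin 2, which binds iron-carrying siderophores and is also an acute phase gene, read 1808, 1511 and 1515 in CNOT3KO and 415, 140.3 and 226 in WT (6.25-fold, log2 2.64, SE 0.29, adjusted p = 0.000144), a wide separation. Slc39a14, a zinc and iron importer, rose 1.83-fold with overlapping groups, and lost its call without CNOT3KO mouse 1 (log2 0.85) or 3 (0.64), without WT mouse 1 (0.78) or 2 (0.76), and with all probe sets averaged (0.61). Steap3, the endosomal ferrireductase, read 1.64-fold and lost its call without any 1 of the CNOT3KO mice (0.67 to 0.75), without WT mouse 1 (0.47) or 3 (0.73) and under 3 other choices. Its relative Steap4, a metalloreductase abundant in fat, fell to 0.591-fold, a call lost without CNOT3KO mouse 1 (-0.69) or 2 (-0.63). Slc39a8 and Slc22a17, a metal importer and a lipocalin 2 receptor, were called lower at 0.649-fold and 0.726-fold. Slc39a8 lost its call without CNOT3KO mouse 1 (-0.59) or 2 (-0.52) or WT mouse 1 (-0.41) or 3 (-0.63) and under 3 other choices, and its groups overlapped. Slc22a17 lost its call without any 1 of the CNOT3KO mice (-0.53 to -0.33) or without WT mouse 1 (-0.42) or 2 (-0.40), and under 4 other choices. Its 1 probe set was not called in the test across probe sets. Ncoa4, the receptor that delivers ferritin to autophagy, was 0.849-fold of WT and did not pass (adjusted p = 0.0821), except with centred arrays (-0.33) or array weights (-0.28).

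Iron is also spent on heme and on iron-sulfur clusters, and genes of both paths moved in both directions. Of 14 tested genes of heme synthesis 2 rose and 2 fell. Urod, uroporphyrinogen decarboxylase, rose to 6493 ± 289 in CNOT3KO against 3479 ± 45.9 in WT (SD, n = 3 each; log2 0.90, adjusted p = 9.8e-05), by both of its probe sets, and Abcb6, a porphyrin transporter, rose 1.59-fold. Alad, which makes porphobilinogen, fell to 0.654-fold by both of its probe sets (log2 -0.61, and -1.10 with the 2 averaged). Slc25a38, a glycine carrier of mitochondria, was called lower at 0.708-fold, and lost its call without CNOT3KO mouse 1 (log2 -0.31) or any 1 of the WT mice (-0.53 to -0.45), with no filter or without the trend. Of 12 tested genes of iron-sulfur cluster assembly 3 rose and 4 fell. Iscu, the scaffold on which clusters form, read 3769, 3399 and 4398 in CNOT3KO and 8820.5, 10067 and 6945 in WT (0.452-fold, log2 -1.15, SE 0.15, adjusted p = 0.00037), without overlap. Bola3, a cluster transfer factor, fell to 0.529-fold (log2 -0.92, but -0.36 with its probe sets averaged, of which 1 of 2 tested was called), Isca1, another, to 0.590-fold and Glrx5, a glutaredoxin of mitochondria, to 0.793-fold. The rises were smaller: Nfu1, a late cluster carrier, 1.49-fold, Ciao1, of the cytosolic pathway, 1.30-fold, and Hscb, a co-chaperone, 1.27-fold. Hscb lost its call without CNOT3KO mouse 1 (0.36) or 3 (0.30) or WT mouse 2 (0.30) or 3 (0.35), with quantile normalization (0.31) or with centred arrays (0.25), and Ciao1 with centred arrays (0.28).

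Markers of other cells and tissues were read in the same arrays, where 23.2% of all tested genes were called higher and 16.9% lower. Of 7 erythroid markers with a probe set 3 were tested and 0 passed, with sums of 395 to 413 in CNOT3KO and 317 to 387 in WT. Of 9 hepatocyte markers 2 were tested: Apoa2 rose at signals of 117 to 123 in CNOT3KO against 38.1 to 80.6 in WT, and Alb, at 144, 379 and 80.4 in CNOT3KO and 338, 362 and 335 in WT, did not pass. Of 8 neutrophil markers 3 were tested and 0 passed. Of 6 T cell markers 4 were tested and 1, Il7r, rose 6.68-fold. Of 8 epididymis and testis markers 1 was tested, Rnase10, which rose to 175 ± 22.0 in CNOT3KO against 96.5 ± 3.51 in WT (SD, n = 3 each). Of the endothelial markers 9 of 9 with both group means above the filter fell (median log2 difference -1.30), and Tie1, at 47.0 in CNOT3KO and 114 in WT, was tested only through WT and is not counted. Of 10 adipocyte markers Lep and Cidec fell and 8 did not pass. The part of these cell types in the member differences was not tested.

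**Figure D4:**
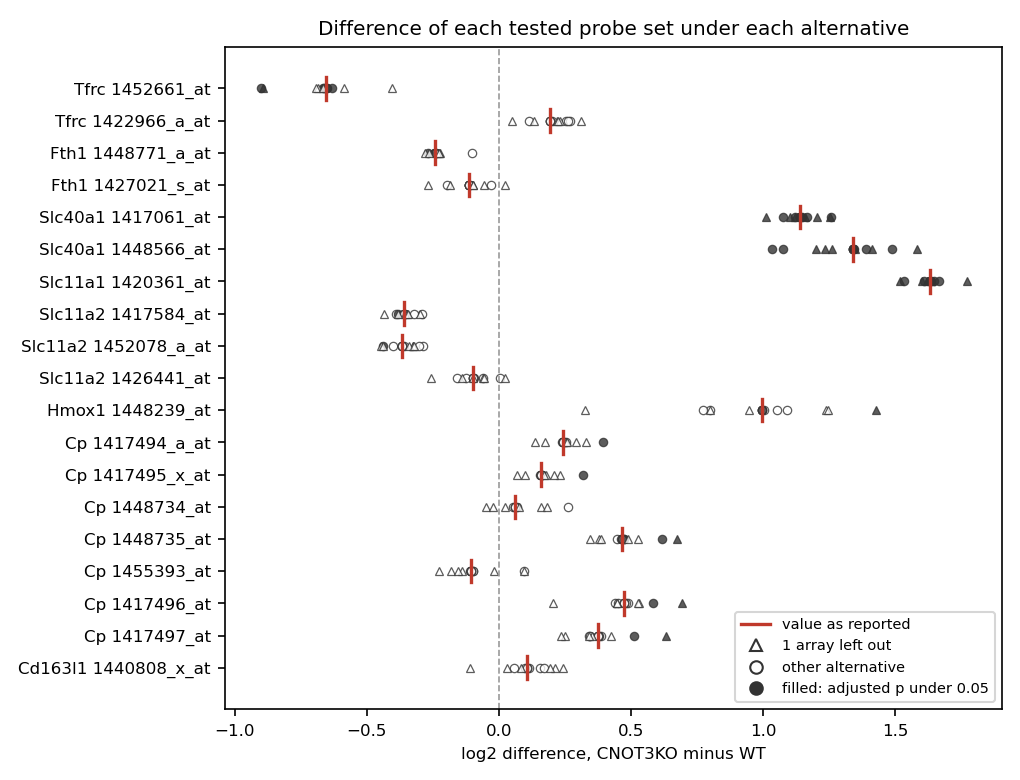
Log2 difference, CNOT3KO minus WT, of the 19 tested probe sets as reported (red bar), with 1 array left out (triangles) and under the other alternatives (circles), filled where the adjusted p was under 0.05. Every point of Slc11a1 and Slc40a1 is filled, those of Tfrc 1452661_at are filled in part, and those of Hmox1 run from 0.33 to 1.43.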

How the data were processed

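White adipose tissue RNA of 3 CNOT3KO and 3 WT mice was measured on 1 array each. The deposited values are linear signal intensities that the authors made with MAS5, per the submitters' processing notes, with a version and scaling target not given in the sources used here. Trimmed means differed by 0.0701% between arrays, so they were already scaled. Detection calls were not used here, so a dim signal was not separated from background. Groups and mouse numbers came from sample titles. The titles number separate mice.

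The test across 27022 probe sets took every probe set above the 40th percentile of mean signal, named or not. Members, gene lists and the gene-level test used only probe sets named by 1 gene (34945 of 45037, while 932 had several and 9160 none). Entrez numbers of 34741 matched RefSeq GRCm38.p6, used for names. Values were taken as log2(signal + 22.5), where 22.5 is the 25th percentile of all values, and tested with limma 3.58.1 (R 4.3.3; lmFit, eBayes with trend, two-sided) on probe sets above the 40th percentile of mean signal, and again with the brightest probe set of each gene. The median SE was 0.17. The scripts were tested on simulated data. The number of arrays limits precision. Named genes were all member probe sets, up to 3 called genes per sub-list and direction, fixed regulators, and the top 3 of marker lists. Hfe, Glrx5, Mertk, Marco, Tie1, Alb, Adipoq, Fabp4, Steap2 and the NRF2 targets that did not pass fall outside this rule. They were chosen after their values were seen. The members and lists were chosen with earlier results of these data known. Alternatives changed the offset, the filter on dim features, the scaling (quantile, or centring on the median), the variance prior (no trend, or robust), the weight of arrays, the use of mouse number as a block, the probe set standing for a gene, or left out 1 array. Groups of 3 were not tested for outliers. Python 3.11.15 and pandas 2.3.3 were used for the motif search and for plotting, and matplotlib 3.10.9 for plotting.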

Additional observations from a re-analysis of the deposited data

How the results depend on the processing

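The rises of Slc11a1 and both Slc40a1 probe sets, and the missed call of Tfrc 1422966_a_at, kept their direction and side of the threshold under every alternative run, and these were the 4 of 19 tested member probe sets to do so. Member probe sets called higher numbered 3 as reported, 8 with array weights and 5 with the mouse number as a replicate block, and 3 to 5 with 1 array left out. Those called lower numbered 1 as reported, 0 with no filter on dim features, 0 without trend, 4 with array weights, 2 with the block, and 0 to 1 with 1 array left out. Calls among all 27022 tested probe sets numbered 9724 as reported, rose with array weights and ran from 6713 to 8549 with 1 array left out. The calls that array weights added among the members thus came with a rise across the whole array. At gene level 3 of the 8 member genes were called, 5 with arrays centred on the median, 6 with array weights and 5 with the block, and 2 to 3 with 1 array left out. Of all 12769 tested genes 5115 were called as reported and 3820 to 4636 with 1 array left out. The count for all genes also rose with array weights, and it changed little with centred arrays or with the block. The added calls with the block were Fth1 1448771_a_at, Hmox1 (adjusted p = 0.0201) and Cp 1448735_at. Among the other named genes the block added lower calls of Cd163 and Aco1 and lost that of Slc25a38. Same-numbered mice deviated together at r = 0.0782, 0.0832 and 0.098, and none reached the 0.1 set for pairing, although 6 of 6 mice correlated best with their own number. Those 6 matches were read from the same correlations and are not independent. They are at most a hint from the data and not the design. Falls among the wider iron and heme genes numbered 17 as reported and 10 to 16 with 1 array left out, and rises numbered 14 and 11 to 14. Tfrc stood at 0.026 with all its probe sets averaged, in place of -0.65, and so turned in sign. The cause of these differences was not tested, except that leaving out an array leaves fewer samples. Of 56 genes followed at gene level 31 kept direction and side under all 18 alternatives.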

Other observations

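Targets of NRF2 outside iron and heme handling, which share an activator with Hmox1 and the ferritin genes, were called about as often as other genes. Of 10 tested 2 rose, 2 fell and 6 did not pass, beside 23.2% higher and 16.9% lower of all tested genes (median log2 difference -0.05, beside 0.02 for all tested genes). Gclm, of glutathione synthesis, read 3913, 3426 and 5246 in CNOT3KO and 2109.5, 1577 and 1938.5 in WT (2.20-fold, log2 1.14, adjusted p = 0.000676), and the log2 difference was 0.56 with its probe sets averaged. Srxn1, sulfiredoxin, read 1091, 946 and 1334 in CNOT3KO and 699.9, 478 and 416 in WT (2.10-fold, adjusted p = 0.00214). In both the groups did not overlap and CNOT3KO mouse 3, the mouse with the highest Hmox1 signal, was the highest. Abcc1, an export pump of conjugates, fell to 0.620-fold, and Txn1, thioredoxin, to 0.826-fold, a call lost without any 1 of the 6 mice (log2 -0.31 to -0.25) and under 3 other choices. In these 2 targets CNOT3KO mouse 3 was not the highest of its group. It read 2183 for Abcc1, below mouse 2 at 2333, and 10873 for Txn1, the lowest. Of the targets that did not pass, CNOT3KO mouse 3 was the highest of its group for Nqo1, Gclc, Txnrd1 and Me1. For Gsr and Osgin1 it was not. Its summed adipocyte marker signal was also the highest of its group (182928, against 149375 and 151780 in mice 1 and 2). What sets this mouse apart was not tested.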
